A study of Mus musculus with 7 samples.

Results

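Collagen genes, the genes whose symbol is Col, a number, a and a number, were followed in epididymal white adipose tissue, the fat pad beside the epididymis of male mice. The platform table paired 46 probe sets with exactly 1 such symbol, and these stood for 44 of the 19938 genes measured. For Col6a5 and Col6a6, with 2 probe sets each, the one with the higher mean over all 7 libraries was used. The 44 genes were divided into 11 fibrillar, 6 basement membrane (type IV), 6 type VI and 21 other collagens. The study profiled 4 wild type and 3 aP2-XBP1 transgenic samples. All 7 came from male C57Bl/6J mice aged 17 weeks and fed chow, and the controls carried no transgene. In the transgenic mice XBP1, which switches on ER stress genes, is driven by the promoter of aP2 (Fabp4), which is used mainly by fat cells but also by some macrophages. The labels do not say how many founder lines were used or that replicates were separate animals, so the spread between samples may in part be technical.

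Collagens are trimers of alpha chains that wind around each other along short repeats that each begin with glycine. Fibrillar chains form the tensile fibrils of connective tissue, type IV chains form the sheet under epithelia, vessels and around each fat cell, and type VI chains form beaded filaments that are abundant around fat cells. The chains are folded, hydroxylated and glycosylated in the endoplasmic reticulum (ER), the compartment that XBP1 serves, and are made mostly by fibroblasts and progenitors, with type IV and type VI also made by fat cells and vessel cells.

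Values are log2 expression after RMA, 1 array per sample, as deposited. A difference is the transgenic mean minus the wild type mean on that scale. WT1 to WT4 and TG1 to TG3 are the wild type and transgenic libraries with their replicate numbers. The array medians lay between 4.03 and 4.04 in wild type and between 3.99 and 4.01 in transgenic libraries, all below the wild type ones. Correlations between arrays across probe sets lay between 0.973 and 0.996. Xbp1 itself (probe set 10374035) read 8.90, 9.07, 8.94 and 9.19 in WT1 to WT4 and 9.76, 9.99 and 9.66 in TG1 to TG3, and the groups did not overlap (difference 0.77, limma adjusted p = 0.622). The fat cell markers Fabp4 and Lpl read above 11 in every library, so the tissue was fat, but not only fat. Serpina1f, a gene of the epididymis, read 10.70, 10.84 and 11.50 in WT1, WT3 and WT4 and 2.74 to 3.73 in the other libraries. Svs2, of the seminal vesicle, read 9.36 in WT2 and 5.22 in TG3, and 2.47 to 2.79 elsewhere. Prm2, of sperm, read 9.76 in WT4 and 3.25 to 3.68 elsewhere. For the named collagens the difference is therefore also given against WT2 alone, the wild type library in which Serpina1f was low and Svs2 high. A single library has no spread of its own, so these values carry no test.

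Sequences just before the start site are shown for 4 genes whose values the text sets apart. Col1a2 and Col3a1 stand for the chains that were high in WT1 and WT3, Col5a3 is the fibrillar chain that did not follow them, and Col4a5 is the basement membrane chain whose groups did not overlap. Each runs 5′ to 3′ over the 250 bases before the RefSeq start (GRCm38.p6), and capitals mark the letters CCAAT (the box bound by NF-Y), GGGCGG (the box bound by Sp1) and TATAAA (the TATA box), each searched on both strands. Their positions are chr6:4505368-4505617 on the + strand for Col1a2, chr1:45311288-45311537 on the + strand for Col3a1, chr9:20815068-20815317 on the - strand for Col5a3 and chrX:141475169-141475418 on the + strand for Col4a5.
Col1a2: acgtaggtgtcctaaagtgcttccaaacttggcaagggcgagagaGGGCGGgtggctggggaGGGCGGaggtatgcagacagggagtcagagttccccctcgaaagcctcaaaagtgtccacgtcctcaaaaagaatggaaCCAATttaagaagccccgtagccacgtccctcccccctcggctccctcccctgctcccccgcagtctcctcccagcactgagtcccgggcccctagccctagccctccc
Col3a1: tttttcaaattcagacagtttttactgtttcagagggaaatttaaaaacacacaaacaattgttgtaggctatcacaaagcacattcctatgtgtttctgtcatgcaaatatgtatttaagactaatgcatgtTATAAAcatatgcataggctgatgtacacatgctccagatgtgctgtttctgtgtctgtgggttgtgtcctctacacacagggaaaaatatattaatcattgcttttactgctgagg
Col5a3: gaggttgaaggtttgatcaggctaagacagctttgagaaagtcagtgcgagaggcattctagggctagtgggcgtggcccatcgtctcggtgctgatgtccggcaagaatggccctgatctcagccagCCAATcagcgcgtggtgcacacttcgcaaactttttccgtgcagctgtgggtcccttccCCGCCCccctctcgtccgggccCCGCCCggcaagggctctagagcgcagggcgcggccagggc
Col4a5: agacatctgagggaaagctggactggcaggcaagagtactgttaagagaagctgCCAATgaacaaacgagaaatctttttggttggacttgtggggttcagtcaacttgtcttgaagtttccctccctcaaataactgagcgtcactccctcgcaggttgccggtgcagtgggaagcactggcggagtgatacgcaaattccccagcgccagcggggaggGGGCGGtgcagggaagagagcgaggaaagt

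The RefSeq table held 38 such windows for 35 of the 44 collagen genes. CCAAT was present in 34.2% of them, against 33.8% of all 32851 windows, and TATAAA in 13.2%, against 12.4%. GGGCGG was present in 57.9%, against 32.7% of all windows. Of the letters known from promoters that XBP1 or ATF6 bind, CCACG was present in 34.2%, against 28.3%, and TGACGT in 5.26%, against 6.47%. CCAAT followed after 9 bases by CCACG was present in 0 of the 38 windows and in 0.113% of all. These are matches of letters within 250 bases and say nothing on their own about binding. Col4a1 and Col4a2 start head to head: the 250 bases before their starts run away from each other and share none, while the table's full windows of 300 bases, which run on past the start, share 78 bases.

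No collagen gene passed the test between transgenic and wild type fat. With limma, 0 of 44 reached an adjusted p under 0.05, as did 0% of all 19938 genes, and the smallest adjusted p was 0.622 both for the collagens and for all probe sets. At an unadjusted p under 0.05, 0 collagens had a higher transgenic mean, against 4.96% of all genes. At the same threshold 4 (9.09%) had a lower one, against 2.94%: Col4a5, Col4a6, Col12a1 and Col18a1. The count of lower ones was 1 (2.27%, against 1.95% of all genes) once arrays had been set to a common median. It was also 1 (2.27%) without WT3 or without TG2, against 1.43% and 1.59% of all genes. Without WT1, TG1 or TG3 it was 2 (4.55%), against 2.02%, 2.56% and 1.59%. It was 9 (20.5%) without WT4 or with array weights, against 4.05% and 7.72%. Under these settings 0 collagens were higher, except 1 without WT1. The transgenic libraries lay above all wild type libraries for 0 collagens, against 3.55% of all genes, and below all of them for 2, against 2.24%. With arrays set to one median those 2 counts stayed at 0 and 2, while the shares of all genes became 20.5% higher and 1.33% lower.

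The median difference over the 44 genes was -0.04, against 0.01 over all genes. A lower transgenic mean was found in 29 of the 44, against 9116 of all 19938 genes. The median difference was -0.07 for the fibrillar, 0.03 for the basement membrane, -0.10 for the type VI and -0.01 for the other collagens. The fibrillar median was 0.01 without WT1, -0.13 without WT4 and -0.27 over the 8 chains brighter than the median probe set, and the type VI median was -0.02 without TG2 and -0.21 without WT4. The median over all 44 turned to 0.01 once arrays had been set to one median, a step that moved the median of all genes to 0.05, and to 0.02 without WT1. In bulk tissue, fewer cells of a type and less RNA per cell cannot be told apart.

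**Figure D1:**
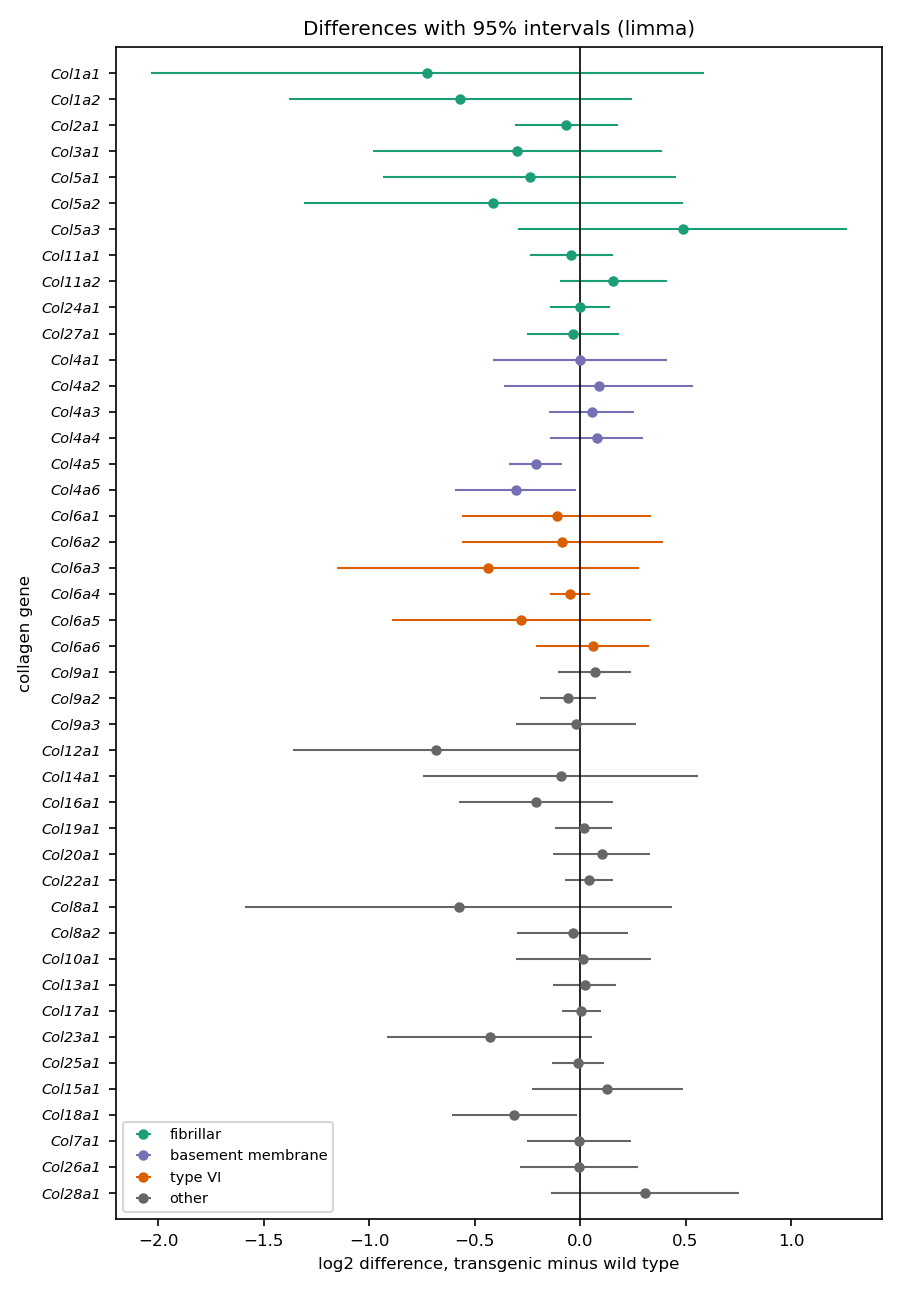
Log2 difference (transgenic minus wild type, 4 and 3 libraries) of the 44 collagen genes, coloured by group, with 95% intervals from limma as bars. The intervals of 40 genes cross 0; those of Col4a5, Col4a6, Col12a1 and Col18a1 lie below it, and none of the 44 passes after adjustment.

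Many collagens were spread widely among the wild type samples. The wild type range, the highest minus the lowest of the 4 libraries, was larger than the range of the 3 transgenic libraries in 41 of the 44 genes (93.2%), against 70.3% of all genes. A larger share is already given by 4 libraries against 3. The median wild type range was 0.47 for the collagens, 1.14 for the fibrillar ones and 0.28 for all genes, and the median transgenic range was 0.17 for the collagens and 0.16 for all genes. In 10 collagens the wild type range was over 1, a factor of more than 2, against 7.59% of all genes. These were Col1a1, Col1a2, Col3a1, Col5a1, Col5a2, Col5a3, Col6a3, Col8a1, Col12a1 and Col14a1. The transgenic range was over 1 in 0 of them. Such wide ranges were not confined to collagens, where the share was 22.7%. The share was 42.9% of 21 genes of collagen degradation, 28.6% of 21 fibril-associated matrix proteins and 25% of 12 genes of cleavage and crosslinking. For collagen receptors it was 23.1%, and for profibrotic signals 11.1%. Among marker lists it was 75% for macrophages and for mesothelium, 66.7% for smooth muscle and pericytes, 85.7% for the seminal vesicle and 100% for sperm. It was 44.4% for the epididymis, 27.3% for progenitors, 9.09% for fat cells, 8.33% for endothelium and 0% for nerve glia. Wide ranges were found in 0 of 23 genes of folding in the ER and 0 of 18 basement membrane partners.

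WT1 and WT3 both lay above all 5 other libraries for 14 collagens (31.8%), against 9.69% of all genes. Of these, 7 were fibrillar (Col1a1, Col1a2, Col2a1, Col3a1, Col5a1, Col5a2 and Col11a1), 1 was of type VI (Col6a3) and 6 were others, among them Col8a1, Col12a1, Col16a1 and Col18a1. For 27 collagens (61.4%), all transgenic libraries lay within the wild type range, against 36% of all genes. These patterns were noticed in the values and were not tested.

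**Figure D2:**
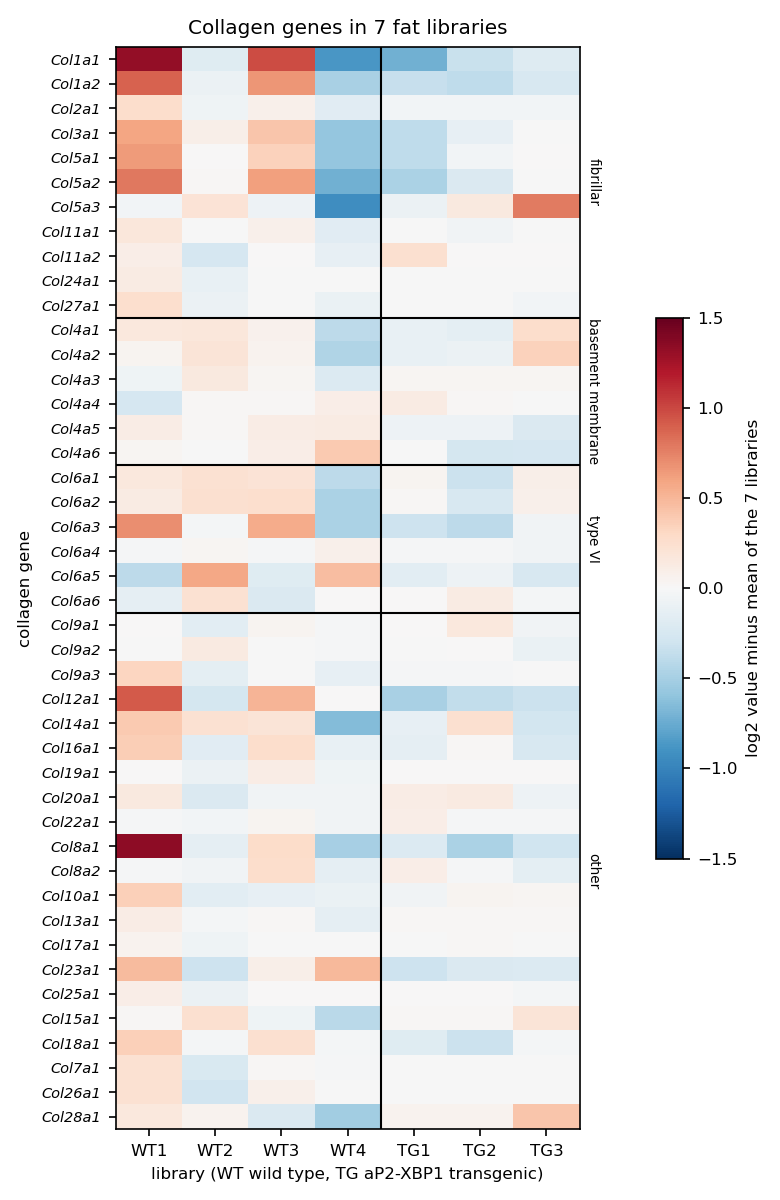
Log2 value of each collagen gene (rows, in 4 groups) in each library (columns) minus that gene's mean over the 7 libraries. WT1 and WT3 are high for most fibrillar chains and for Col6a3, Col8a1 and Col12a1, and WT4 is low for most of them but not for Col12a1. In most fibrillar rows WT2 and the 3 transgenic columns are paler than WT1.

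The fibrillar chains came first in this pattern. Col1a1 (10380419), the major chain of type I collagen, read 11.68, 10.18, 11.35 and 9.50 in WT1 to WT4 and 9.65, 10.03 and 10.18 in TG1 to TG3. WT1 and WT3 stood high, and WT4 was the lowest of all 7, 4.54-fold below WT1, so the groups overlapped. The difference was -0.72 (SE 0.54, limma adjusted p = 0.699, 95% interval -2.04 to 0.59). Col1a2 (10536220), its partner chain, read 11.48, 10.51, 11.26 and 10.11 in wild type and 10.25, 10.21 and 10.35 in transgenic fat. Its transgenic libraries lay within 0.14 of each other, and the difference was -0.57 (SE 0.34, limma adjusted p = 0.668). Both sizes depended on single wild type libraries. The Col1a1 difference was -0.39 without WT1, -1.12 without WT4 and -0.23 against WT2 alone. That of Col1a2 was -0.36 without WT1, -0.81 without WT4 and -0.24 against WT2 alone.

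Col3a1 (10346015), the chain of type III collagen in stretchy tissue and vessel walls, followed the same libraries. It read 11.45, 10.94, 11.27 and 10.27 in wild type and 10.47, 10.74 and 10.84 in transgenic fat, a difference of -0.30 (SE 0.28). Its neighbour in the genome, Col5a2 (10354309), a chain of the type V collagen that starts fibrils, read 7.94, 7.17, 7.77 and 6.42 and then 6.67, 6.93 and 7.14, a difference of -0.41 (SE 0.37). Both genes had WT1 highest and WT4 lowest. Col5a1 (10470462), the main type V chain, read 7.47, 6.84, 7.18 and 6.26 in wild type and 6.46, 6.80 and 6.84 in transgenic fat, a difference of -0.24 (SE 0.29). In these 3 genes the transgenic libraries lay wholly within the wild type range. With 1 library left out, the difference of Col3a1 ran from -0.14 (without WT1) to -0.53 (without WT4), that of Col5a2 from -0.21 to -0.71 and that of Col5a1 from -0.06 to -0.47, without the same libraries. Against WT2 alone the differences of Col3a1, Col5a2 and Col5a1 were -0.26, -0.26 and -0.14.

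Col5a3 (10591281), the type V chain known from adipose tissue and muscle, went another way. It read 7.06, 7.32, 7.03 and 6.18 in WT1 to WT4 and 7.02, 7.25 and 7.88 in TG1 to TG3. WT4 was low and TG3 high, while WT1 and WT3 did not stand out. Its difference, 0.49 (SE 0.32, limma adjusted p = 0.686), was the largest positive one among the 44, and it was 0.25 without WT4, 0.24 without TG3 and 0.07 against WT2 alone. The cartilage and minor fibrillar chains Col2a1, Col11a1, Col11a2, Col24a1 and Col27a1 had transgenic means from 3.46 to 4.89 and differences from -0.07 to 0.16.

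**Figure D3:**
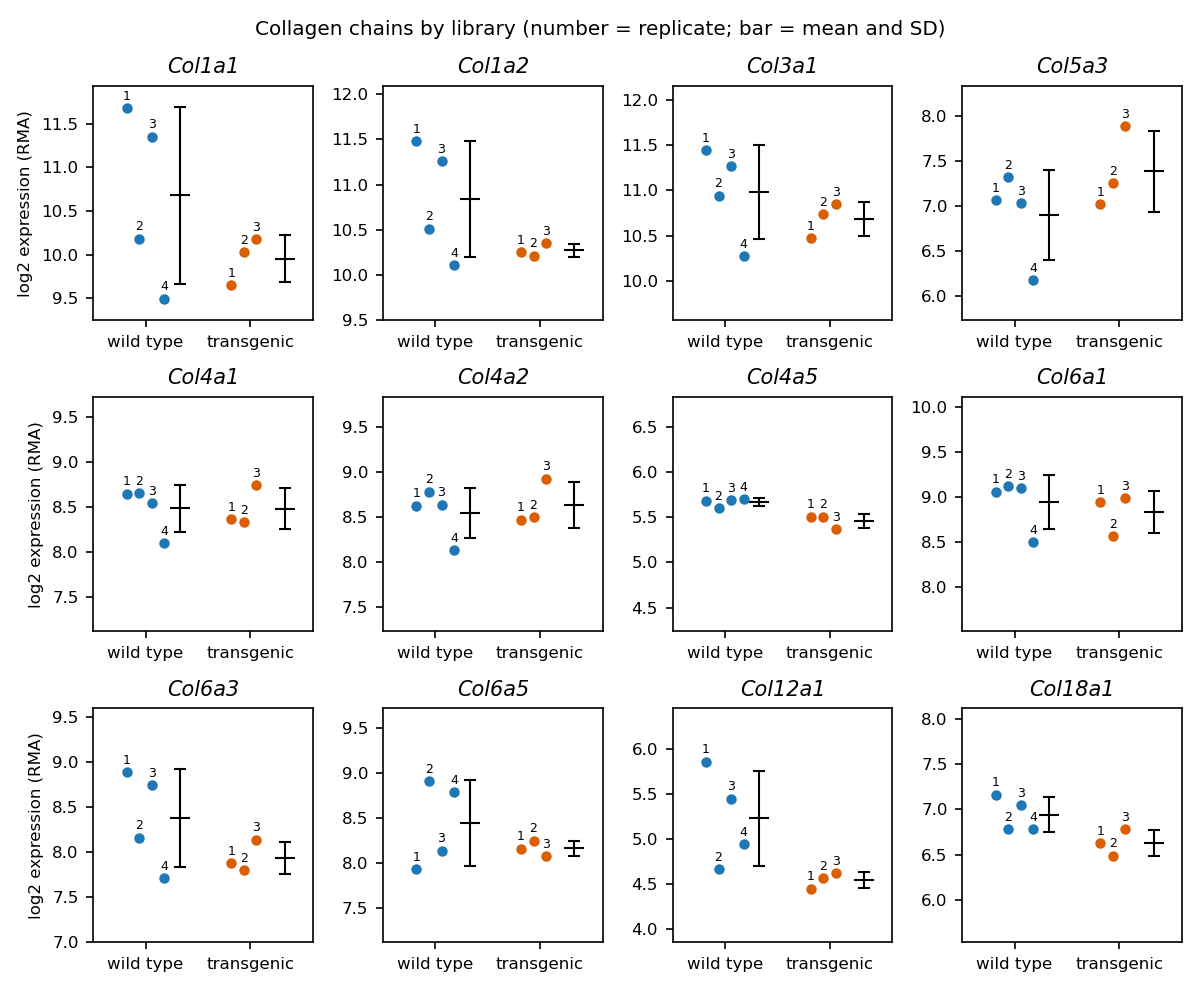
Log2 expression (RMA) of 12 collagen genes by library, numbered by replicate, with the mean and SD of each genotype (4 wild type, 3 transgenic) beside the points. WT1 and WT3 are the upper wild type points for Col1a1, Col1a2, Col3a1, Col6a3 and Col12a1 and the lower ones for Col6a5.

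The basement membrane chains varied less. Col4a1 (10576973), the common chain of type IV collagen, read 8.65, 8.65, 8.54 and 8.10 in wild type and 8.37, 8.33 and 8.74 in transgenic fat. Wild type averaged 8.48 ± 0.26 (SD, n = 4) and transgenic fat 8.48 ± 0.23 (SD, n = 3), and the interval of the difference ran from -0.42 to 0.41. Col4a2 (10570068), which pairs with it in the trimer, read 8.63, 8.78, 8.64 and 8.14 and then 8.47, 8.50 and 8.93, a difference of 0.09 (SE 0.19). Against WT2 alone the differences of Col4a1 and Col4a2 were -0.17 and -0.15. Relative to their own means the 2 genes stayed within 0.12 of each other in every library, while each spanned more than 0.5 among the wild type libraries.

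Col4a5 and Col4a6, chains of kidney, smooth muscle and epithelial basement membranes, had the smallest unadjusted p of the group. Col4a5 (10602105) read 5.69, 5.60, 5.69 and 5.70 in WT1 to WT4 and 5.51, 5.51 and 5.37 in TG1 to TG3. All transgenic libraries lay below all wild type ones, with a difference of -0.21 (SE 0.05, limma adjusted p = 0.622). Col4a6 (10607012) read 4.62, 4.59, 4.69 and 4.99 in wild type and 4.59, 4.33 and 4.33 in transgenic fat, where TG1 equalled WT2, and its difference was -0.31 (SE 0.12, limma adjusted p = 0.622). WT4, the library with the highest Serpina1f and smooth muscle values, was highest for both. For Col4a5 it barely exceeded WT1 and WT3 (5.70 against 5.69 in each), and a link to those tissues was not tested. Against WT2 alone the differences were -0.14 and -0.17. Col4a3 and Col4a4 read below 5 in all libraries, with differences of 0.05 and 0.08.

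Among type VI chains, Col6a1 and Col6a2 moved together and Col6a3 did not. Col6a1 (10370210) read 9.06, 9.12, 9.10 and 8.50 in wild type and 8.94, 8.57 and 8.99 in transgenic fat, a difference of -0.11 (SE 0.19). Col6a2 (10370180), its neighbour in the genome, read 7.77, 7.90, 7.91 and 7.18 and then 7.68, 7.41 and 7.73, a difference of -0.09 (SE 0.20). WT4 was the low wild type library in both, and relative to their own means they stayed within 0.09 of each other. Against WT2 alone both differences were -0.29. Col6a3 (10356520), the largest chain, whose cut end is released by fat tissue as endotrophin, read 8.88, 8.16, 8.74 and 7.70 in wild type and 7.88, 7.79 and 8.14 in transgenic fat. WT1 and WT3 stood above the other libraries, as for Col1a1, and the difference was -0.44 (SE 0.30, limma adjusted p = 0.689). It was -0.27 without WT1, -0.66 without WT4 and -0.22 against WT2 alone. Against Col6a1, Col6a3 departed by up to 0.54 between libraries.

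Col6a5, a chain related to Col6a3, was high in WT2 and WT4 where Col6a3 was high in WT1 and WT3. Probe set 10596403 read 7.94, 8.91, 8.14 and 8.79 in WT1 to WT4 and 8.16, 8.25 and 8.08 in TG1 to TG3, so that WT2 and WT4 were high and all other libraries lay within 0.32 of each other. Its second probe set (10596409) read 7.55, 8.40, 7.92 and 8.14 in wild type and 7.88, 7.93 and 7.72 in transgenic fat, with WT2 and WT4 again the highest. The differences were -0.28 (SE 0.26) and -0.16 (SE 0.19). The first was -0.12 without WT2, and -0.74 against WT2 alone, its highest library.

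The neighbouring Col6a6 (10596383) read 6.02, 6.38, 5.94 and 6.16 and then 6.16, 6.27 and 6.12, a difference of 0.06 (SE 0.11), and its second probe set differed by 0.16 (SE 0.21). WT2 was the highest wild type library in both probe sets, and the first differed by -0.20 against WT2 alone. Col6a4 (10596428) read 3.39 to 3.52 in all 7 libraries, below every array median, with a difference of -0.05, and -0.06 against WT2 alone. Col6a5 and Col6a6 were picked after their values were seen.

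The remaining collagens include those that decorate fibrils or tie basement membranes to them. Col12a1 (10595211), a fibril-associated chain of dense connective tissue, read 5.86, 4.67, 5.45 and 4.94 in wild type and 4.45, 4.57 and 4.62 in transgenic fat. All transgenic libraries lay below all wild type ones, TG3 by 0.05 below WT2, and the difference was -0.68 (SE 0.28, limma adjusted p = 0.627). It was -0.47 without WT1 and -0.12 against WT2 alone. Col14a1 (10424140), another fibril-associated chain, read 8.64, 8.48, 8.45 and 7.61 and then 8.13, 8.49 and 7.98, a difference of -0.09 (SE 0.27) with WT4 the lowest library, and of -0.28 against WT2 alone.

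The multiplexins Col15a1 and Col18a1 lie in basement membrane zones, and the cut end of Col18a1 is endostatin, an inhibitor of vessel growth. Col18a1 (10370259) read 7.16, 6.78, 7.04 and 6.78 in wild type and 6.62, 6.49 and 6.78 in transgenic fat, where TG3 equalled WT2. Its difference was -0.31 (SE 0.12, limma adjusted p = 0.622). Col15a1 (10504775) read 8.11, 8.33, 8.03 and 7.69 in wild type and 8.11, 8.11 and 8.29 in transgenic fat, a difference of 0.13 (SE 0.15). Neither difference passed. Against WT2 alone they were -0.15 for Col18a1 and -0.16 for Col15a1.

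A further 3 of this group were picked after their values were seen. Col8a1 (10440091), a network-forming chain of vessel walls, read 6.99, 5.52, 5.93 and 5.15 in wild type and 5.45, 5.17 and 5.35 in transgenic fat, with WT1 alone above 6. Its difference of -0.57 (SE 0.42) was -0.21 without WT1, -0.82 without WT4 and -0.20 against WT2 alone. Col23a1 (10375838), a membrane-spanning collagen, read 5.74, 4.95, 5.34 and 5.74 and then 4.95, 5.04 and 5.05, a difference of -0.43 (SE 0.20) that was 0.06 against WT2 alone. Col28a1 (10543082) read 5.50, 5.40, 5.12 and 4.82 and then 5.40, 5.40 and 5.75, a difference of 0.31 (SE 0.19) that was 0.18 without WT4, 0.19 without TG3 and 0.12 against WT2 alone. The other 14 genes of the group, Col7a1, Col8a2, Col9a1, Col9a2, Col9a3, Col10a1, Col13a1, Col16a1, Col17a1, Col19a1, Col20a1, Col22a1, Col25a1 and Col26a1, had differences from -0.21 (Col16a1) to 0.10 (Col20a1).

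Many of the dimmer values were identical between libraries. In 7 of the 44 collagens, among them Col2a1, Col4a3, Col7a1 and Col26a1, the 3 transgenic libraries held the same value to the last digit. This was found in 7.95% of all genes, and the transgenic SD is then 0. At least 3 of the 7 libraries shared a value in 18 of the 44 collagens, against 47.2% of all genes. Among these was the brighter Col15a1, at 8.11 in WT1, TG1 and TG2. A value above the array median in every library was found for 35 of the 44 collagens.

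The machinery that makes, cuts and removes collagen held no gene that passed with limma either. Of all 19938 genes, 10822 read higher on average in transgenic fat and 9116 lower. Of 23 measured genes of folding and modification in the ER, 15 read higher and 8 lower (median difference 0.06). Plod2, the lysyl hydroxylase of crosslink sites, differed by -0.49 (SE 0.22), and Plod3, which hydroxylates lysines and adds glucose, by 0.24 (SE 0.13). In both genes the groups did not overlap. That was 1 of the 23 genes lower and 1 higher, against 2.24% of all genes lower and 3.55% higher. Serpinh1, the collagen chaperone HSP47, averaged 7.16 ± 0.24 (SD, n = 4) and 7.16 ± 0.08 (SD, n = 3).

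Of 12 genes of propeptide cleavage and crosslinking, 5 were higher and 7 lower, with a median difference of -0.10. Loxl4 (0.22) and Tll1 (0.20) had the smallest unadjusted p. Both were dim: Loxl4 read 3.15 to 3.60, below every array median, and Tll1 read 3.92 to 4.48. Lox, lysyl oxidase, read 7.68, 6.83, 7.16 and 6.24 in WT1 to WT4 and 6.83, 6.83 and 6.53 in transgenic fat, so WT1 and WT3 were high and WT4 low as for Col1a1. Of 21 genes of collagen degradation and its inhibitors, 5 were higher and 16 lower (median -0.11). Ctsk, the collagen-cutting cathepsin K, read 7.47, 7.13, 7.32 and 5.93 in wild type and 5.94, 5.66 and 5.84 in transgenic fat, a difference of -1.15 (SE 0.37), and Mmp12, the macrophage metalloelastase, differed by -1.83 (SE 0.82). Mmp14, the membrane collagenase, read 9.17, 7.79, 8.92 and 7.16 in wild type and 7.34 to 7.61 in transgenic fat. Lox and Mmp14 were picked after their values were seen.

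The matrix around the collagens gave 8 higher and 13 lower of 21 fibril-associated proteins (median -0.13), with Eln, elastin, at -0.22 (SE 0.06) and Vcan, versican, at -0.41 (SE 0.16). Basement membrane partners gave 9 higher and 9 lower (median -0.00), with the laminin chain Lama5 at -0.10 and Smoc1 at 0.57. Of 13 measured collagen receptors 12 had a lower transgenic mean, with a median of -0.19. Itga1, the integrin chain for type IV collagen, read 8.58, 8.38, 8.48 and 8.86 in wild type and 8.23, 8.02 and 7.97 in transgenic fat, a difference of -0.50 (SE 0.13). Itga2, the integrin chain for type I collagen, read 5.43, 4.40, 5.66 and 6.23 and then 3.73, 4.17 and 4.34, a difference of -1.35 (SE 0.42), with its wild type value highest in WT4 and lowest in WT2. Among 18 profibrotic signals 6 were higher and 12 lower (median -0.14), with Tgfb2 at -0.20 and Pdgfrb, which is also in the pericyte list used below, at -0.36.

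Markers of cell types also differed between libraries, in patterns that were not the same from list to list. The fibrillar score, the mean deviation of the 11 genes from their own 7-library means, was 0.46, -0.04, 0.28 and -0.43 in WT1 to WT4 and -0.20, -0.09 and 0.02 in TG1 to TG3. The mean of 12 macrophage markers was 9.03, 8.48, 9.09 and 7.83 in wild type and 8.32, 8.35 and 8.53 in transgenic fat, again with WT1 and WT3 high and WT4 low. Their brightest members were C1qc and Lyz2. The mean of 11 fat cell markers was 10.18, 10.88, 10.42 and 10.56 in WT1 to WT4, lowest in WT1 and WT3. It was 10.89, 10.85 and 10.98 in TG1 to TG3. All 11 had a higher transgenic mean (median difference 0.40), as had 10822 of all 19938 genes.

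Markers of fibroblasts and adipose progenitors, 11 genes led by Gsn and Dpt, lay between 7.86 and 8.34 in wild type and between 7.94 and 8.17 in transgenic fat, with WT2 the highest and WT1 and WT3 between. Smooth muscle and pericyte markers, 12 genes led by Acta2 and Myh11, lay between 7.17 (WT2) and 9.00 (WT4) in wild type, and between 6.76 and 7.22 with the transgene, so they did not share the low WT4 of the fibrillar chains. Endothelial markers, 12 genes led by Cdh5 and Kdr, ranged from 7.29 to 7.62 and from 7.55 to 7.74. Mesothelial markers, 8 genes led by Upk3b and Krt19, were 5.36, 6.86, 5.82 and 6.47 in WT1 to WT4 and 6.27 to 6.73 in transgenic fat. Among the wild type libraries WT2 and WT4 were the highest, as for Col6a5 and for the fat cell markers. TG1, at 6.73, lay above WT4, while for Col6a5 it lay below (8.16 against 8.79). Epididymal markers (9 genes, led by Serpina1f and Spink8) ranged from 2.58 to 5.40 and from 2.64 to 3.21, seminal vesicle markers (7, led by Svs2 and Svs5) from 2.33 to 6.18 and from 2.19 to 3.37, sperm markers (8, led by Prm2 and Prm1) from 3.00 to 7.31 and from 3.05 to 3.17, and nerve glia markers (4, led by Mbp and Sox10) from 3.58 to 3.69 and from 3.49 to 3.60. The transgenic mean was higher for 12 of 12 endothelial (median difference 0.19), 7 of 8 mesothelial (0.43) and 6 of 11 progenitor markers (0.02). Epididymal markers gave 5 higher and 4 lower (0.10), and nerve glia markers 2 and 2 (-0.01). It was lower for 11 of 12 smooth muscle and pericyte (-1.39) and 11 of 12 macrophage markers (-0.20). It was also lower for 7 of 7 seminal vesicle (-0.71) and 8 of 8 sperm markers (-1.05). None of these markers passed with limma. The part of any of these cell types in the collagen values was not tested.

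**Figure D4:**
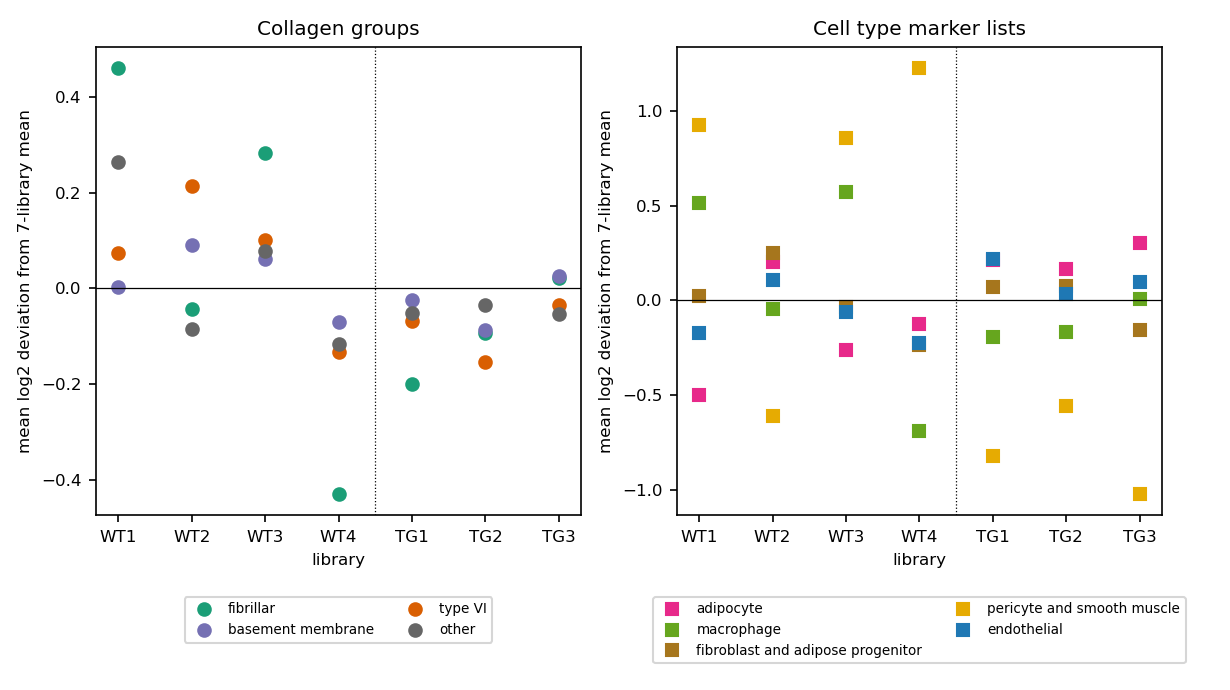
Mean log2 deviation from the 7-library mean for the 4 collagen groups (left) and 5 marker lists (right) in each library; 1 point per library and list. The fibrillar group runs from 0.46 in WT1 to -0.43 in WT4, and the macrophage list is also high in WT1 and WT3 and low in WT4.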

How the data were processed

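RNA of 7 epididymal fat samples was hybridised to 1-colour Affymetrix arrays, 1 per sample. The deposited table holds log2 values which the authors made with RMA, per the submitters' processing notes. RMA sets the probe intensities of all arrays to 1 distribution, which can hide a shift of all genes. The deposited probe set values still had array medians from 3.99 to 4.04. The version of RMA, like the genome build, is not given in the sources used here. Of 35556 probe sets, 21789 had exactly 1 gene symbol in the platform annotation, 1621 had several and 12146 none or no entry. All 44 collagen symbols matched RefSeq by Entrez identifier.

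Differences were fitted with limma 3.58.1 under R 4.3.3, by two-sided moderated tests of genotype without covariates, over the 21789 probe sets, and p-values were adjusted over all of them (Benjamini-Hochberg, 0.05). The fit was tested on simulated data. Counts over genes use each gene's probe set with the highest mean. Values equal between groups count as overlap. Members and lists were chosen with earlier results of these data known. The text names 15 collagens known from fat stroma and vessel walls, the 2 with the smallest p in each group, the 2 with the smallest p in each pathway list and the 2 brightest in each marker list, and says where others were added. At most 18.1% of values were identical in any pair of arrays, so each sample was counted once. The number of arrays limits the precision. Promoter sequences are from RefSeq (GRCm38.p6). Plots used matplotlib 3.10.9 in Python 3.11.15. Alternatives were other normalizations, filters, variance models, a block for the replicate number, leaving out each library, WT2 as the only control and an adjusted p of 0.1.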

Additional observations from a re-analysis of the deposited data

Results flagged for a closer look

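Among the 4 wild type libraries, 8 of 66 items had 1 library far from the others relative to their range. These were 4 of 44 collagen genes and 4 of the marker, pathway and group means. Chance flags about 1 in 20 such groups of 4 if values are independent and normally spread. The items here share libraries, and the share over all genes was not computed, so the counts are descriptive. Col6a1 was low in WT4, at 8.50 against 9.06 to 9.12 in the others, and the fibril-associated matrix proteins were low in the same library, at 8.07 against 8.34 to 8.38. Col4a5 was lowest in WT2, at 5.60 against 5.69 to 5.70. Col9a2 was highest in WT2, at 5.06 against 4.91 to 4.92. Col10a1 was highest in WT1, at 3.13 against 2.61 to 2.67, values below every array median. The seminal vesicle markers averaged 6.18 in WT2 against 2.33 to 2.36, and the sperm markers 7.31 in WT4 against 3.00 to 3.31. The nerve glia markers averaged 3.69 in WT3 against 3.58 to 3.59.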

How the results depend on the processing

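With limma 0 collagens passed under any alternative with more than 1 library in each group. WT2 alone has no spread of its own, so that setting carries no test. The median difference of the 44 genes lay between -0.10 and 0.02 under all alternatives. The median of the basement membrane collagens (0.03) was -0.14 against WT2 alone and -0.090 with the replicate block, and ran from -0.10 to 0.073 with 1 library left out. That of the type VI collagens (-0.10) was -0.25 against WT2 alone and ran from -0.21 to -0.02 with 1 library left out. The fibrillar median (-0.07) ran from -0.13 to 0.01, and was -0.27 with the dimmer probe sets left out, where 8 of 11 chains remain. Groups did not overlap for 2 collagens. The count was 2 to 10 with 1 library left out. Without WT4, 10 were lower (22.7%, against 4.65% of all genes), and without WT2, 4 were lower (9.09%, against 5.19%). Against WT2 alone, where a single control leaves less room for overlap, it was 31: 15 higher (34.1%, against 24.6% of all genes) and 16 lower (36.4%, against 20%). The replicate numbers were not shown to pair samples: deviations of same-numbered samples correlated at -0.14, -0.09 and 0.06. The block, in which WT4 has no partner, gave 0 calls. Of the collagens named with values, the sign of the difference turned under at least 1 alternative for Col4a1, Col4a2, Col6a1, Col6a2, Col6a6, Col14a1, Col15a1 and Col23a1. Without WT2, limma called 91 of 21789 probe sets, with 0 collagens among the 44 tested.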
